A study of Mus musculus with 8 samples.

Results

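A set of 48 costimulatory, checkpoint and TNF superfamily genes was chosen by name and looked up by gene symbol in the deposited count tables of Th17 RNA-seq. Of these, 44 were among the 13704 genes listed in at least 1 table, and 42 had at least 10 reads over both libraries and were tested. *Cd244* (0 reads in the WT and 2 in the KO library) and *Cd70* (0 and 1 reads) were too low to test, and *Havcr2*, *Cd160*, *Fasl* and *Vsir* were listed in neither table under these symbols. *Vsir*, the gene of the inhibitory ligand VISTA, appeared under its older name 4632428N05Rik with 67 and 40 reads and a log2 ratio (KO/WT) of -0.63 (95% limits -1.24 and -0.05), and was not counted among the 44.

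Activated T cells read a second layer of signals beside that of the antigen receptor. Receptors of the CD28 family bind B7 proteins and either lower the threshold of activation (CD28, ICOS) or restrain it (CTLA-4, PD-1, BTLA). Receptors of the TNF superfamily, such as OX40, GITR and CD30, are trimer-binding receptors whose cytoplasmic tails recruit TRAF adaptors or, in the case of Fas and the TNF receptor encoded by *Tnfrsf1a*, death-domain proteins. SLAM receptors bind mostly copies of themselves on a neighbouring cell, and the ectoenzymes CD39 and CD73 turn extracellular ATP into adenosine. In Th17 cells these molecules set survival, expansion and exhaustion of the response.

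The study compared C57BL/6 mice labelled wild type (WT) with mice labelled TRIM28fl/flxCD4cre (KO), in which a Cre recombinase under the *Cd4* promoter deletes the floxed *Trim28* gene in developing T cells. The cultures began with naive T cells of spleen and lymph nodes, gated as CD4+CD25-CD62LhiCD44low, on plates coated with antibodies to CD3 and CD28. TGF-β (0.5 ng/ml) and IL-6 (20 ng/ml), which direct cells to the Th17 fate, were present over the 3 days of culture, and anti-CD3 was given again at the end. All cells therefore had received an antibody to CD28 itself. The age of the mice, the number pooled, and whether the WT mice carried Cre or the floxed allele were not given in the sources used here. There was 1 RNA-seq library per genotype, so no difference below has a replicate check.

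The libraries held 6650066 (WT) and 6185108 (KO) uniquely assigned reads, and the genes studied here took 0.484% and 0.436% of them. *Trim28* itself had 4485 reads in the WT and 180 in the KO library (log2 fold change -4.53). The T cell markers *Cd3d*, *Cd3e*, *Cd3g*, *Cd4*, *Cd5*, *Cd2* and *Lck* were all well covered, with 439 to 7943 reads per library. None of the 7 was called, but their 95% limits excluded 0, below it for 3 and above it for 4. Their log2 ratios ran from -0.26 for *Cd5* to 0.37 for *Cd2*. *Trac* and *Trbc2* were listed in neither table. *Il17a* (2226 and 381 reads) and *Il17f* (3143 and 345 reads), which define Th17 cells, were called lower in the KO library. Some genes that every T cell uses had very few reads in both tables: *Ptprc*, the gene of CD45, had 35 and 13, and *Vav1* was listed in neither. A low count or a missing entry in these tables is thus no measure of absence, and levels between genes are given only with this limit. *Ptprc* was itself called lower (log2 ratio -1.29, limits -2.37 and -0.37), but not after the length correction given below. Whether reads of such genes were lost alike in both libraries was not tested. In bulk RNA, fewer cells of a type and less RNA per cell cannot be told apart.

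Between the libraries, 3 of the 42 tested genes were lower in the KO library and 1 was higher, when a call required at least a 2-fold change and an adjusted p under 0.05. The 3 were *Cd86*, *Tnfsf8* and *Entpd1*, and the 1 was *Tnfsf10*. These are 7.14% and 2.38% of the tested members, beside 5.53% and 2.57% of all 10881 tested genes called lower and higher, so the shares lay near the background. The test was a two-sided exact binomial test on reads with Benjamini-Hochberg adjustment over all tested genes. It sets 1 library against the other, so it says nothing of the spread between mice or cultures of a genotype. The adjusted p was 3.22e-13 for *Cd86*, 5.10e-13 for *Tnfsf8*, 7.30e-05 for *Entpd1* and 2.39e-07 for *Tnfsf10* by this exact test. The median log2 fold change (KO/WT, after adding 0.5 and dividing by library totals) of the 42 genes was -0.05, beside -0.02 for all tested genes. *Cd86*, *Tnfsf8* and *Tnfsf10* were also displayed by the study as changed genes of these same libraries, so their directions are not independent evidence.

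**Figure D1:**
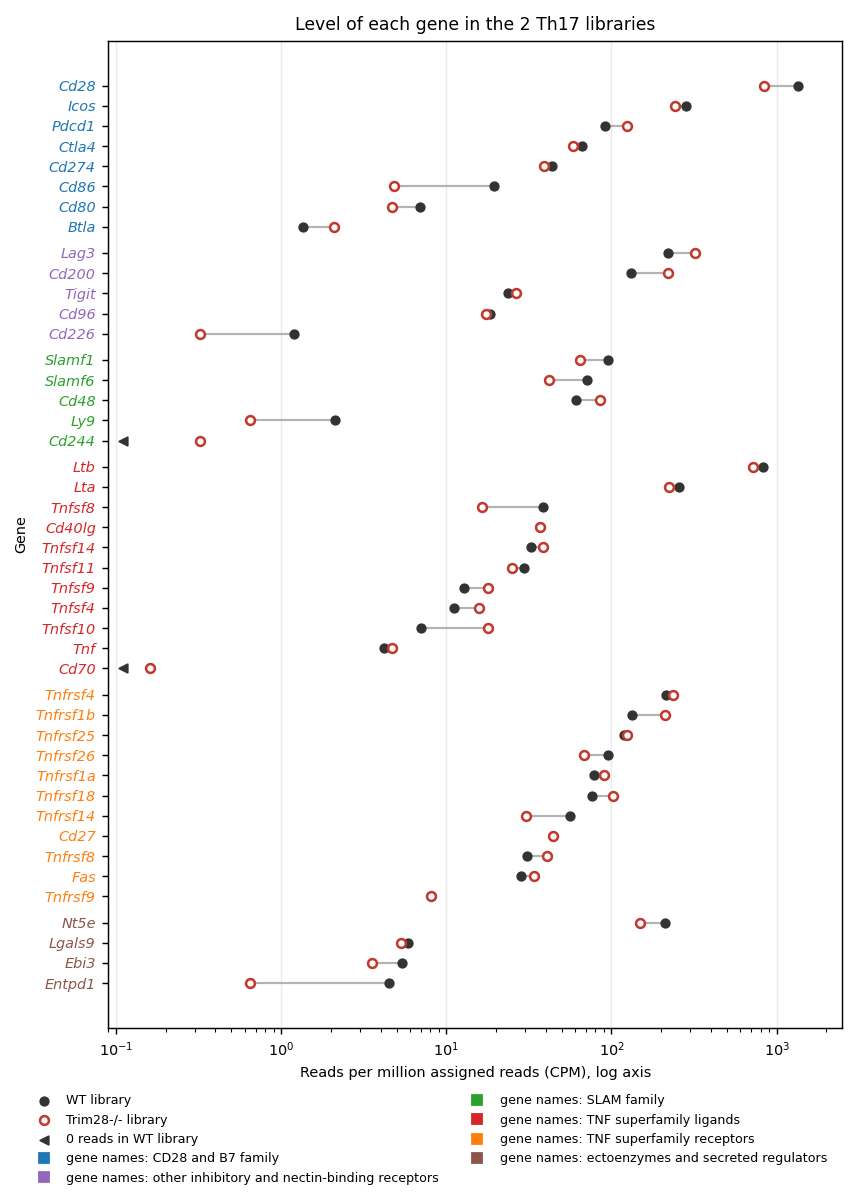
Level of each of the 44 listed genes in the WT library (filled points) and the Trim28-/- (KO) library (open points; triangles mark 0 reads in the WT library), in CPM (reads scaled to a library of 1000000) on a log axis, grouped by role. Most pairs lie close together, while *Cd86*, *Tnfsf8*, *Tnfsf10* and *Entpd1* are more than 2-fold apart, as are *Ly9* and *Cd226*, which have under 20 reads. For *Cd40lg*, *Cd27* and *Tnfrsf9* the points coincide and the filled one is hidden.

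*Cd86* encodes B7-2, a ligand of CD28 and CTLA-4 that is best known from antigen-presenting cells and is also made by activated T cells. Its 129 WT reads (19.4 CPM, where CPM is reads scaled to a library of 1000000) stood against 30 KO reads (4.85 CPM), a level 3.95-fold lower (log2 fold change -1.98, exact 95% limits -2.62 and -1.42). The gene lies on chromosome 16 of GRCm38 from 36568956 to 36666158. Its relative *Cd80*, which encodes the other B7 ligand of the same receptors, had 46 and 29 reads and a log2 ratio of -0.55, whose limits -1.28 and 0.14 enclose 0. *Cd274*, which encodes the PD-1 ligand PD-L1, had 292 and 240 reads (-0.18, limits -0.43 and 0.07), and 14.1% of its exon bases overlap a gene on the other strand.

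Because B7-2 is abundant on B cells and dendritic cells, markers of these cells are given beside it. The 6 B cell markers reported were all listed, and their sum was 10.4 CPM in the WT and 8.08 CPM in the KO library. Within the list, *Cd79b* (15 and 2 reads) was called lower, *Cd79a* had 20 and 8 reads, *Ms4a1* 7 and 2, and *Pax5* 8 and 0. In the other direction, *Ebf1* had 19 and 34 reads and *Cr2* 0 and 4. Of 7 dendritic cell markers 5 were listed, summing to 4.66 and 7.28 CPM, with *Itgax* at 0 and 4 reads, *Zbtb46* at 0 and 7, and *Clec9a* and *Siglech* in neither table. Of 8 monocyte and macrophage markers 4 were listed, at 3.61 and 3.07 CPM in sum, and *Lyz2*, *Csf1r*, *Adgre1* and *Fcgr1* were listed in neither. *Cd86* alone, at 19.4 CPM in the WT library, lay above the sum of each of these lists there, and at 4.85 CPM in the KO library it lay below the sums of the B cell and dendritic cell lists. CPM is not scaled to transcript length, and low counts are no measure of absence here. These sums therefore do not give the number of such cells. Their part in the difference of *Cd86* was not tested.

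*Tnfsf8* encodes CD30 ligand, and *Tnfsf10* encodes TRAIL, a ligand that can trigger apoptosis through death receptors. *Tnfsf8* went from 256 WT reads (38.5 CPM) to 102 KO reads (16.5 CPM) and was 2.33-fold lower (log2 fold change -1.22, limits -1.57 and -0.89). *Tnfsf10* moved the other way, from 47 reads (7.07 CPM) to 110 reads (17.8 CPM), a 2.50-fold higher level (1.32, limits 0.83 and 1.86). The genes lie apart, *Tnfsf8* on chromosome 4 from 63831202 to 63861508 and *Tnfsf10* on chromosome 3 from 27317077 to 27339665. TRAIL is also a product of natural killer and cytotoxic cells. Of 5 natural killer markers only *Klrd1* (58 and 70 reads) and *Klre1* (6 and 6) were listed, summing to 9.62 and 12.3 CPM, and *Ncr1* and *Klrb1c* were in neither table. Of 6 CD8 T cell markers 4 were listed, at 16.1 and 18.4 CPM in sum, among them *Prf1*, called higher with 22 and 48 reads, *Gzmb* (32 and 37), *Cd8b1* (52 and 27) and *Cd8a* (1 and 2). The part of natural killer and CD8 T cells in the difference of *Tnfsf10* was not tested.

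*Entpd1* encodes CD39, which removes phosphates from extracellular ATP and ADP. It went from 30 WT reads (4.51 CPM) to 4 KO reads (0.647 CPM), close to the 3 reads (0.485 CPM) set here as the floor for the KO library. The log2 fold change was -2.66, with wide limits -4.77 and -1.30. *Nt5e* encodes CD73, the enzyme of the next step to adenosine, and was far better covered, with 1403 and 915 reads (211 and 148 CPM). Its log2 ratio of -0.51 (limits -0.63 and -0.39) lay past the counting error and short of 2-fold, so both enzymes of the pathway had fewer reads in the KO library and 1 of the pair passed the call. *Entpd1* lies on chromosome 19 from 40612366 to 40741602 and *Nt5e* on chromosome 9 from 88327609 to 88372089.

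**Figure D2:**
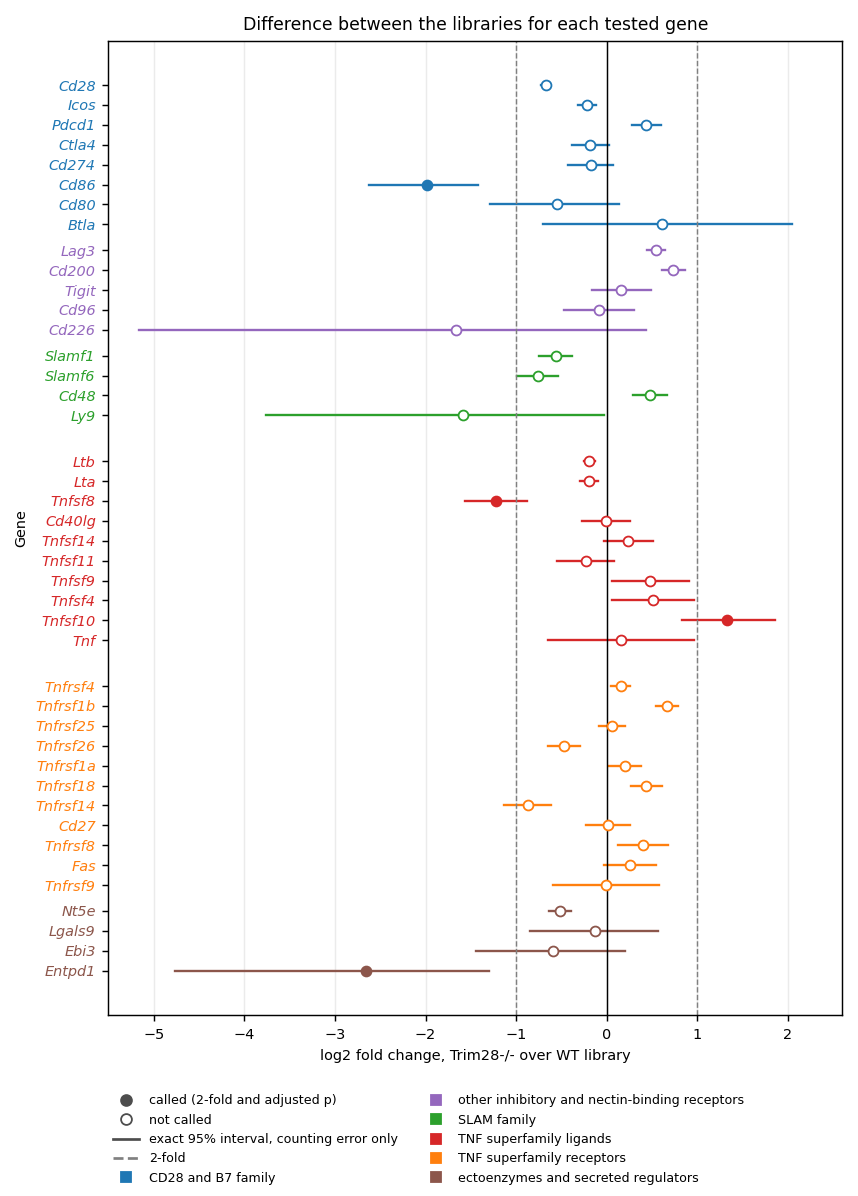
log2 fold change (KO over WT library) of the 42 tested genes with exact 95% intervals, which cover counting error only, and dashed lines at 2-fold. Filled points mark the 4 called genes, from -2.66 for *Entpd1* to 1.32 for *Tnfsf10*, and the widest intervals belong to genes with few reads such as *Cd226* and *Ly9*.

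The 250 bases before an annotated transcript start of these called genes are shown, as the stretch where promoter elements are often found. RefSeq's promoter table (GRCm38.p6) gave windows for 3 of the 4, namely *Tnfsf8* and *Tnfsf10*, which went in opposite directions, and *Entpd1*, with 2 annotated starts. The *Tnfsf8* window precedes a transcript that starts at 63861284, while the gene as given above extends to a predicted transcript's start at 63861508, so 224 of the 250 bases lie within the gene. The downstream *Entpd1* window lies wholly within its gene. Capitals mark CpG dinucleotides, the sites of DNA methylation.
Tnfsf8 (chr4:63861285-63861534, minus strand): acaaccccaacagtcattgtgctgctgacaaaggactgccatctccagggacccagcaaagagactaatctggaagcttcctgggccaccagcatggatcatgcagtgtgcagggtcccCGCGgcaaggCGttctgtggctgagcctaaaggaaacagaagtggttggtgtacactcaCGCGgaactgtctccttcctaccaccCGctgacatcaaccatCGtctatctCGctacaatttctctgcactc
Tnfsf10 (chr3:27316827-27317076, plus strand): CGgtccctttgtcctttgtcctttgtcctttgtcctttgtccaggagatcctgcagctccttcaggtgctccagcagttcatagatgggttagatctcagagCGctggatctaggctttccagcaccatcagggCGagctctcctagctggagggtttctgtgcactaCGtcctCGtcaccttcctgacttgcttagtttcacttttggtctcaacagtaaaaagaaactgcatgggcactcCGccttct
Entpd1, upstream start (chr19:40612116-40612365, plus strand): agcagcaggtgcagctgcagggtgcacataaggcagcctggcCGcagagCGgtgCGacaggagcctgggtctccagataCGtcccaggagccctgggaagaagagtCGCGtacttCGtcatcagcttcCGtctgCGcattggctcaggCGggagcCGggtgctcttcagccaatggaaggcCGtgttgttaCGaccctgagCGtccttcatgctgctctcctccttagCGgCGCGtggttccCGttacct
Entpd1, downstream start (chr19:40659520-40659769, plus strand): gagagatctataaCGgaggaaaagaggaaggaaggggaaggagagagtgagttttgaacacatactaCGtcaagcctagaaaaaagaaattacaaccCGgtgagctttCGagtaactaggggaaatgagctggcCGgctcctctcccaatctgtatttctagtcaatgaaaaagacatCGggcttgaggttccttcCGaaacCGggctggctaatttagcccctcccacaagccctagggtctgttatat
The upstream *Entpd1* window held 18 CpG, a number reached by 21.7% of the 32851 windows in the table. The downstream *Entpd1* start and *Tnfsf8* held 8 each and *Tnfsf10* held 6, the median of all windows. On both strands, 5 short motifs were searched: STAT (TTCNNNGAA), AP-1 (TGANTCA), NF-kB (GGGA and TTCC with any 2 bases between), the core site of ROR factors (AGGTCA) and the interferon response element (GAAA and GAAA with any 2 bases between). None of these letters occurred in the 4 windows, whereas 7.02%, 6.75%, 1.21%, 14.0% and 2.98% of all windows held a match in that order. This says nothing of binding outside these windows or to other letters.

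Below the 2-fold limit, the receptors of the CD28 family differed in sign. *Cd28* was the most abundant transcript of the set in reads, with 8897 (1338 CPM) in the WT and 5191 (839 CPM) in the KO library, and its log2 fold change was -0.67 (limits -0.72 and -0.62), or 1.59-fold lower. *Icos*, its close relative and an inducible costimulator, had 1869 and 1494 reads (-0.22, limits -0.32 and -0.12). *Ctla4*, which encodes the inhibitory receptor for the same B7 ligands as CD28, had 442 and 362 reads (-0.18), and its limits -0.39 and 0.02 enclose 0. *Pdcd1*, the gene of the inhibitory receptor PD-1, went the other way with 608 and 766 reads (0.44, limits 0.28 and 0.59). *Btla* had only 9 and 13 reads (0.61, limits -0.70 and 2.04). *Cd28*, *Ctla4* and *Icos* lie side by side on chromosome 1 between 60746388 and 61000322, with gaps of 136 and 44.9 kb. Of the 8 tested genes of the CD28 and B7 family, 3 had an interval below 0, 1 above 0, and 1 was called lower, beside 25%, 23.5% and 5.53% of all tested genes.

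Among the other inhibitory receptors, *Lag3*, whose product binds MHC class II, had 1454 reads (219 CPM) in the WT and 1975 (319 CPM) in the KO library, a log2 ratio of 0.55 (limits 0.45 and 0.65). *Cd200*, which encodes a ligand for an inhibitory receptor on myeloid cells, had 878 and 1359 reads (132 and 220 CPM), 1.66-fold more in the KO library (0.73, limits 0.61 and 0.86). Both were thus past the counting error in the same direction as *Pdcd1*, and none of the 3 reached 2-fold. The receptors of nectin and nectin-like ligands were lower in reads: *Tigit*, an inhibitory one, had 158 and 164 (0.16, limits -0.17 and 0.48), and *Cd96* 123 and 108 (-0.08, limits -0.47 and 0.30). Their activating counterpart *Cd226* had 8 and 2 reads, too few to tell a direction (limits -5.17 and 0.43). Of the 5 tested genes of this group, 0 were called, beside 5.53% and 2.57% of all tested genes called lower and higher. The interval was below 0 for 0 and above 0 for 2, beside 25% and 23.5% of all tested genes.

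In the SLAM family, *Slamf1* had 634 and 399 reads (log2 fold change -0.56, limits -0.75 and -0.38) and *Slamf6* had 474 and 260 (-0.76, limits -0.99 and -0.54). Both are self-binding receptors that signal through the adaptor SAP. *Ly9*, another such receptor, had 14 and 4 reads (-1.58), with limits -3.76 and -0.03. *Cd48*, whose product is anchored to the membrane by lipid and binds CD2 and the product of *Cd244*, differed in sign, with 407 and 527 reads (0.48, limits 0.29 and 0.67). *Ly9*, *Cd48*, *Slamf1* and *Slamf6* follow each other on chromosome 1 from 171588613 to 171948958, and *Cd48* lies between *Ly9* and *Slamf1*, at 73.8 and 61.9 kb. Of the 4 tested genes, 0 were called, beside 5.53% and 2.57% of all tested genes called lower and higher. The interval was below 0 for 3 and above 0 for 1, beside 25% and 23.5% of all tested genes.

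The remaining 8 tested ligands of the TNF superfamily stayed short of 2-fold, and their intervals lay below 0 for *Ltb* and *Lta* and above 0 for *Tnfsf4* and *Tnfsf9*. Lymphotoxin β, which with lymphotoxin α forms a membrane trimer that guides lymphoid tissue, was the highest of the set per length of transcript. *Ltb* had 5495 and 4474 reads (583 and 510.5 RPKM, reads per 1000 bases of the longest annotated transcript, scaled as CPM) and a log2 ratio of -0.19 (limits -0.25 and -0.13). *Lta* had 1705 and 1384 reads and nearly the same value, -0.20 (limits -0.30 and -0.09). *Tnf*, which lies between them on chromosome 17, at 3.06 kb from *Ltb* and 1.16 kb from *Lta*, had only 28 and 29 reads (0.15, limits -0.64 and 0.96). The gene run of *Ltb*, *Tnf* and *Lta* spans 35194507 to 35205578 in GRCm38. *Cd40lg*, which gives help to B cells, had 247 and 228 reads (-0.01, limits -0.28 and 0.25). *Tnfsf11*, the gene of RANK ligand, had 196 and 155 (-0.23), and *Tnfsf14*, the gene of LIGHT, 217 and 238 (0.24), with intervals that include 0. *Tnfsf4*, the OX40 ligand, had 74 and 98 reads (0.51, limits 0.06 and 0.96). *Tnfsf9*, the CD137 ligand, had 85 and 110 (0.48, limits 0.06 and 0.90), and 14.9% of its exon bases overlap *Gm11110* on the other strand. Whether counting used strand was not stated.

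Of 11 TNF superfamily receptors, all were tested and 0 were called, beside 5.53% and 2.57% of all tested genes called lower and higher. The interval was below 0 for 2 and above 0 for 5, beside 25% and 23.5% of all tested genes. *Tnfrsf1b*, the second TNF receptor, which lacks a death domain, had the highest value, with 882 reads (133 CPM) in the WT and 1302 (210.5 CPM) in the KO library (log2 fold change 0.67, limits 0.54 and 0.79). *Tnfrsf14*, the gene of HVEM, which binds LIGHT and BTLA, had the lowest, with 373 and 189 reads (56.1 and 30.6 CPM, -0.87, limits -1.14 and -0.62), 1.83-fold lower, and 6.14% of its 50-base stretches also occur in other genes. These receptors thus differed in opposite directions past the counting error.
*Tnfrsf4*, the gene of OX40, had 1417 and 1466 reads (0.15, limits 0.05 and 0.26), and *Tnfrsf18*, the gene of GITR, 505 and 635 (0.43, limits 0.26 and 0.61). They are neighbours on chromosome 4, with 9.71 kb between them, and 27.2% of the exon bases of *Tnfrsf18* overlap *Gm16008* on the other strand. *Tnfrsf8*, which encodes CD30, had 205 and 251 reads (0.40, limits 0.12 and 0.67), and *Tnfrsf1a*, which encodes the TNF receptor with a death domain, 519 and 555 (0.20, limits 0.03 and 0.38). *Tnfrsf26*, a decoy-like receptor, had 633 and 424 reads (-0.47, limits -0.65 and -0.29). *Fas* (189 and 210), *Cd27* (293 and 275), *Tnfrsf9* (54 and 50) and *Tnfrsf25* (796 and 771) had log2 fold changes from -0.01 to 0.26 with intervals that include 0.

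Values of some ligands and their receptors can be set side by side, as a description of these pairs. CD30 ligand was 2.33-fold lower in the KO library while its receptor CD30 had a log2 ratio of 0.40. OX40 ligand and OX40 were both above 0, at 0.51 and 0.15, and OX40 was at -0.11 after the length correction given below. CD137 ligand was at 0.48, and its receptor, at -0.01, had limits -0.59 and 0.58 that enclose 0. LIGHT was at 0.24 and its receptor HVEM at -0.87. *Tnf* was at 0.15 on few reads, and its receptors *Tnfrsf1a* and *Tnfrsf1b* at 0.20 and 0.67. *Tnfrsf10b*, the death receptor for TRAIL, had 277 and 225 reads and a log2 ratio of -0.19, whose limits -0.46 and 0.06 enclose 0. *Ltbr* and *Cd40*, the receptors of the lymphotoxin trimer and of CD40 ligand, had at most 2 reads in either library.

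Of the secreted members, *Lgals9*, which encodes galectin-9, had 39 and 33 reads (-0.13, limits -0.85 and 0.57). *Ebi3*, a subunit of IL-27 and IL-35, had 36 and 22 (-0.59, limits -1.44 and 0.20), and 23.4% of its exon bases overlap *Gm16712* on the other strand. Neither differed past the counting error.

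By the exact interval alone, without a fold limit, 13 of the 42 tested genes (31.0%) were below 0 and 12 (28.6%) above 0, beside 25% and 23.5% of all tested genes. These intervals are not adjusted for the number of genes. Of the genes counted, *Ly9* below 0 and *Tnfsf4*, *Tnfsf9* and *Tnfrsf1a* above 0 did not pass the adjusted p limit of 0.05. With a limit of 1.5-fold in place of 2-fold, 6 (14.3%) were called lower and 3 (7.14%) higher, beside 11.5% and 7.02% of all genes. The genes gained were *Cd28*, *Slamf6* and *Tnfrsf14* on the lower side and *Cd200* and *Tnfrsf1b* on the higher. With a coefficient of variation of 0.2 assumed between cultures in the exact test of edgeR, 2 were still called lower, *Cd86* and *Entpd1*, and 0 higher, beside 1.2% and 0.597% of all genes.

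The order of the levels per length was much alike in both libraries. In the WT library *Ltb* (583 RPKM), *Cd28* (308), *Tnfrsf4* (195), *Lta* (185) and *Lag3* (109) led the 44 listed genes, and the same 5 led in the KO library with 510.5, 193, 217, 162 and 160 RPKM. *Cd28* and *Tnfrsf4* changed places. *Cd200* stood in place 9 in the WT library (56.2 RPKM) and in place 6 in the KO library (93.6 RPKM), and *Nt5e* in place 10 (52.8) and 14 (37.0). Counting error does not separate all neighbours in this order, and counts as low as that of *Ptprc* above limit what such an order can show.

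Transcript length moved with the difference between the libraries and differs between these genes and the rest. Over 10792 tested genes with an annotated length, the median log2 fold change ran from 0.29 in the shortest of 10 groups of equal size to -0.44 in the longest. The tested members had a median length of 2136 bases, beside 3318 for all tested genes. When a loess curve against length was taken off, the median of the members went from -0.05 to -0.21 and that of all genes from -0.02 to 0.00. *Cd86* (-2.08), *Tnfsf8* (-1.16), *Entpd1* (-2.55) and *Tnfsf10* (1.53) stayed called, and *Tnfrsf14*, whose transcript is short (1173 bases), passed the limit at -1.12. This gave 4 genes (9.52%) called lower and 1 (2.38%) higher, beside 4.32% and 2.46% of all genes. By the interval alone, 17 members (40.5%) were below 0 and 8 (19%) above 0 after the correction, beside 20.9% and 23.5% of all genes. Among intervals that exclude 0, the near-even split without the correction thus became one of mostly lower values.
Values that lay a little above 0 went below it: *Tnfrsf4* was at -0.11 and *Tigit* at -0.13 after the correction. *Tnfrsf18* went to 0.19, *Pdcd1* to 0.27, *Lag3* to 0.39 and *Cd48* to 0.23, each with a corrected interval still above 0. *Tnfsf4* (0.33), *Tnfsf9* (0.24) and *Tnfrsf1a* (0.06) no longer had an interval above 0. *Ctla4* (-0.35), *Tnfsf11* (-0.37) and *Ebi3* (-0.84) gained one below 0, as did *Tnfrsf4* by a margin that rounds to 0. *Cd28* was at -0.55, *Slamf1* at -0.43 and *Slamf6* at -0.48 after it.

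**Figure D3:**
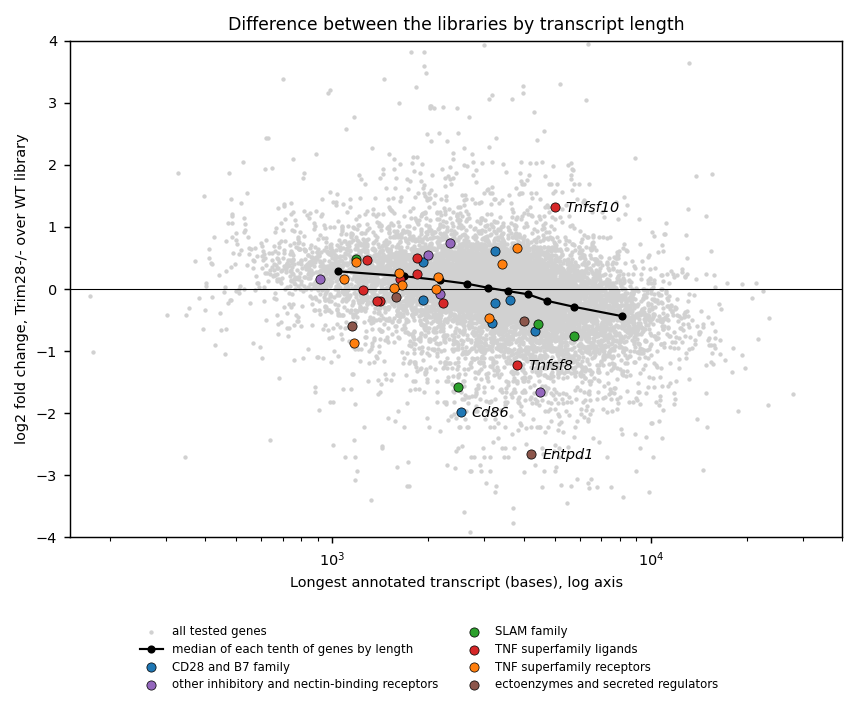
log2 fold change (KO over WT library) against the length of the longest annotated transcript on a log axis, for all tested genes (grey) and the 42 tested members (coloured by role), with the median of each of 10 equal groups by length as a line. The line falls from 0.29 to -0.44, the 4 named genes lie well off it, and 61 of the 10792 genes lie outside the axes.

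**Figure D4:**
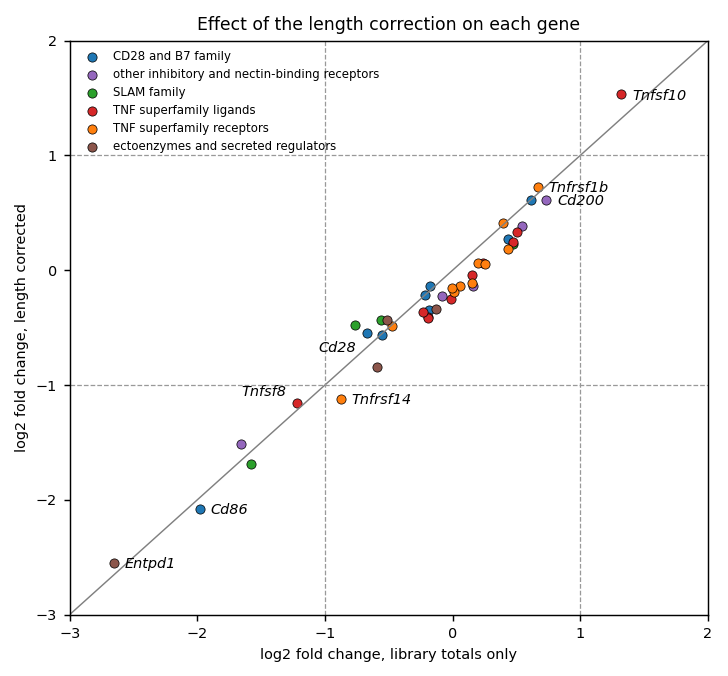
log2 ratio of the 42 tested members with scaling to library totals alone (horizontal) and after the length correction (vertical), with dashed lines at 2-fold and a diagonal of equal values. Points below the diagonal are mostly short transcripts, and *Tnfrsf14* crosses the 2-fold line at -1.12.

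Around these genes, 77 other genes of the same pathways were looked up, of which 61 were listed and 53 tested. In the KO library 2 (3.77%) were called lower and 1 (1.89%) higher, shares no larger than the 5.53% and 2.57% of all tested genes, with a median log2 ratio of -0.09. The 22 TRAF adaptors, death-domain proteins and regulators of NF-κB signalling had a median of -0.03 and 0 calls. Within that list the interval was below 0 for 4 and above 0 for 5, beside 25% and 23.5% of all tested genes, among them *Casp8* (62 and 100 reads, 0.79) and *Traf1* (1201 and 1419 reads, 0.35) on the higher side and *Traf6* (1137 and 733 reads, -0.53) and *Traf4* (1235 and 813 reads, -0.50) on the lower. *Traf6* was at -0.22 after the length correction.
Among other TNF superfamily genes, 7 of 23 were tested, and *Tnfrsf21*, the gene of death receptor DR6, was called lower with 41 and 17 reads (-1.14, limits -2.07 and -0.32). *Tnfrsf22* (96 and 57 reads, -0.64) and *Tnfrsf23* (214 and 100 reads, -0.99), decoy TRAIL receptors of mice and relatives of *Tnfrsf26*, lay below 0 like it. Among ligands of the CD28, nectin and CD200 receptors, *Nectin1* (listed as Pvrl1) was called higher with 16 and 46 reads (1.60) and *Nectin2* (Pvrl2) lower with 10 and 1 (-2.70, limits -8.66 and -0.40). *Pvr*, the main ligand of TIGIT, CD96 and CD226, had 291 and 188 reads (-0.52, limits -0.80 and -0.26).

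Downstream of CD28 and the inhibitory receptors, 12 of 13 cytoplasmic partners were tested and 0 were called. Of all tested genes, 5.53% were called lower and 2.57% higher. Among the 12 partners, 5 intervals lay below 0 and 3 above, beside 25% and 23.5% of all tested genes. After the length correction 4 were below and 2 above, beside 20.9% and 23.5%. *Prkcq*, the kinase PKC-θ recruited with CD28, had 2624 and 1486 reads (-0.72, limits -0.81 and -0.62). *Cblb*, the ubiquitin ligase that sets the need for CD28, had 3221 and 1594 (-0.91, upper limit -0.82), and *Grap2*, an adaptor of CD28, 1036 and 625 (-0.62). These 3 had the sign of *Cd28*, as did 7 of the 12 tested partners in all, and 5 had the other sign. After the length correction the 3 were at -0.64, -0.57 and -0.37. Intervals above 0 belonged to *Grb2*, another adaptor (1845 and 2092 reads, 0.29), *Akt1* (214 and 249 reads, 0.32) and *Ppp2ca* (2391 and 2369 reads, 0.09). Of the SLAM partners, 5 of 9 were tested and 0 called: the adaptor gene *Sh2d1a* had 235 and 211 reads (-0.05), the receptor *Cd84* 551 and 519 (0.02) and *Slamf7* 100 and 50 (-0.89, limits -1.41 and -0.39).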

How the data were processed

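RNA-seq of 1 WT and 1 KO library of Th17 cells was used, and ChIP-seq samples were not analysed here. The authors mapped reads to mm10 with SOAP2 and deposited raw counts per gene (uniquely assigned reads), which sum to the total in each heading. The submitters' processing notes also name HTSeq and Bowtie. Counting settings and strand were not given in the sources used here. A gene listed in 1 table was given 0 reads in the other.

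Log2 fold changes (KO/WT) used library totals and a pseudocount of 0.5. A minimum of 10 reads, both libraries summed, left 10881 genes for a two-sided exact binomial test with Benjamini-Hochberg adjustment (SciPy 1.17.1). Calls needed a 2-fold change and adjusted p below 0.05. The quasi-likelihood test of edgeR could not be run, having no residual degrees of freedom here. Intervals are exact (Clopper-Pearson, 95%) and, like the floor of 3 reads, cover only counting error, as PCR copies were not marked by molecular identifiers. No interval was adjusted for the number of genes. Positions came from RefSeq (GRCm38.p6), and transcript lengths, GC content and exon overlaps from GENCODE M21, for 99.2% of tested genes. Calculations were tested on simulated data.

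Alternatives were TMM and an assumed variation of 0.2 or 0.4 in the exact test of edgeR 4.0.16, DESeq2 1.42.0 size factors, upper-quartile scaling, 5 added to each count, other filters, loess curves (statsmodels 0.14.6, span 0.3) against length or GC content, and a 1.5-fold limit. R 4.3.3 and Python 3.11.15 were used. The genes, their groups, the pathway and marker lists and the rule for named genes (every listed member, with a fold change and interval where called, where the interval excludes 0 or for the 3 best covered of a group, and pathway genes when called) were chosen with earlier results of these data known. Values of other pathway and marker genes were named after they were seen. Of the marker genes, 1 is not reported here and was left out of its list's sum.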

Additional observations from a re-analysis of the deposited data

How the results depend on the processing

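The 3 genes called lower and the 1 called higher kept these numbers within 1.5 times under TMM, DESeq2 size factors, upper-quartile scaling, 5 added to each count, both other filters on low counts, and the GC and length corrections. With at least 10 reads in each library 2 were lower, since *Entpd1*, with 4 KO reads, had no value there. With an assumed coefficient of variation of 0.4 the numbers were 0 and 0, and the share of all genes was not computed for this setting. With 0.2 they were 2 lower and 0 higher, beside 1.2% and 0.597% of all genes. With a 1.5-fold limit they were 6 and 3 (14.3% and 7.14%), beside 11.5% and 7.02% of all genes. Of the 53 other pathway genes tested, 2 were called lower and 1 higher. With 5 added to each count, or with at least 10 reads in each library, 1 was called lower. At a variation of 0.2 or 0.4, 0 and 0 were called. At 1.5-fold, 10 and 3 of the 53 were called, beside 11.5% and 7.02% of all tested genes. The median of the members kept its sign under every alternative run, as it had to under the assumed variations and the 1.5-fold limit. For single members, 458 values were computed, of which 430 kept direction and call, 6 lost the call and 6 gained it. The other filters, the assumed variations and the 1.5-fold limit leave a log2 fold change as it is. Many of the 430 thus had a direction fixed in advance. The other 16 values, all of genes near 0, changed sign. With the length correction these were *Tigit* (-0.13), *Tnf* (-0.043), *Cd27* (-0.19), *Tnfrsf4* (-0.11) and *Tnfrsf25* (-0.14). The interval of *Tnfrsf4* was above 0 without this correction (limits 0.05 and 0.26) and below 0 with it, by a margin that rounds to 0. With the GC correction the sign changed for *Cd96* (0.015), *Cd40lg* (0.09), *Cd27* (-0.021), *Tnfrsf9* (0.072) and *Tnfrsf25* (-0.021). *Cd40lg* was at 0.009 with TMM and 0.008 with DESeq2 size factors, and *Tnfrsf9* at 0.014, 0.013, 0.003 and 0.003 with TMM, DESeq2 size factors, upper-quartile scaling and 5 added. The cause of these changes was not tested. No paired analysis was possible because each genotype had 1 library. Variation between cultures was assumed, never measured, and genes with few reads, such as *Ly9*, *Cd226* and *Btla*, cannot be resolved at this depth.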
